A study of Hydra vulgaris with 32 samples.

Results

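Colchicine was set against hydroxyurea in Hydra, as the 3 libraries taken 9 days after colchicine and the 3 taken 11 days after the start of hydroxyurea. These are 6 of the 32 libraries of the series, chosen by their labelled treatment and day. All animals were of Sf-1, a thermosensitive Hydra strain, and had gone without food for 11 days when sampled. Colchicine had been given at 0.4% once for 8 h, and hydroxyurea at 10 mM in 3 periods of 24 h with pauses of 12 h. The regimens and the days since their start therefore differ, and drug, dose and time cannot be told apart in this comparison. Further libraries served as context: hydroxyurea on days 4, 5 and 7 (3 each), heat shock at 28 °C for 62 h sampled on day 9 (4), and untreated controls on days 4, 5 and 7 (3 each) and 11 (4). Each library holds polyA RNA from the middle of the body, with the apical and basal ends removed. The labels do not say whether replicates came from separate cultures or how many animals each holds, so p-values measure only the spread between these samples, which may be technical.

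The body column of Hydra consists of an ectodermal and an endodermal epithelial lineage and of an interstitial lineage, whose stem cells give rise to nerve cells, stinging cells (nematocytes), gland cells and germ cells. Hydroxyurea blocks ribonucleotide reductase and thereby DNA synthesis, and it kills cells in S phase. Colchicine binds tubulin, prevents microtubules from forming and arrests dividing cells in mitosis. Both drugs, and heat in the strain Sf-1, are classical ways to deplete Hydra of its fast-cycling interstitial cells while the epithelial cells survive. The animals are then said to be epithelial. In such bulk RNA, fewer cells of a type and less RNA per cell cannot be told apart.

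The deposited tables name sequences by the authors' own numbers, and each sequence belongs to a numbered locus. None of the identifiers could be matched to a gene name, so cell type markers could not be examined in any library, and loci are named here by their number. Counts of the sequences of a locus were summed. Library totals were 30.8, 15.2 and 13.1 M (mega) counts in colchicine libraries A, B and C, against 32.2, 25.4 and 26.3 M counts in hydroxyurea libraries A, B and C. Of 25879 loci, 20490, 18162 and 14723 had at least 1 count in the colchicine libraries, and 21017, 20111 and 19764 in the hydroxyurea libraries. After all 6 libraries were thinned to the smallest total, the counts of detected loci were 19208, 17918 and 14723 for colchicine and 19695, 19075 and 18687 for hydroxyurea. Colchicine replicate C thus stood apart in the number of loci seen, also at equal depth. The median SD of a locus between replicates was 0.501 on the log2 CPM scale for colchicine and 0.157 for hydroxyurea, where CPM is the count divided by the TMM-scaled library total in M counts. It was 0.144 to 0.228 in the other 8 groups. For this reason only these 6 libraries entered the test, so that the spread is their own.

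Of 14825 loci tested, 466 were lower and 227 were higher after colchicine than after hydroxyurea at an adjusted p under 0.05 (edgeR quasi-likelihood test, Benjamini-Hochberg over all loci tested). These are 3.14% and 1.53% of the loci tested. The lower loci differed by more than the higher ones. Their median difference was 3.36 on the log2 scale, 328 of the 466 were at least 4-fold lower and 187 at least 16-fold lower. The median difference of the 227 higher loci was 1.37 on the log2 scale, with 70 at least 4-fold and 34 at least 16-fold higher. The median log2 fold change of all loci tested was −0.08. No called locus had overlapping values between the colchicine and the hydroxyurea libraries, while 31.4% of all loci tested had none. The number of calls depended on which libraries entered. It was 1922, 349 and 1321 without colchicine replicates A, B and C, and 204, 251 and 211 without hydroxyurea replicates A, B and C. With 2 in place of 3 hydroxyurea libraries, 174 to 203 of the 466 lower loci were still called, against 28 to 45 of the 227 higher loci.

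**Figure D1:**
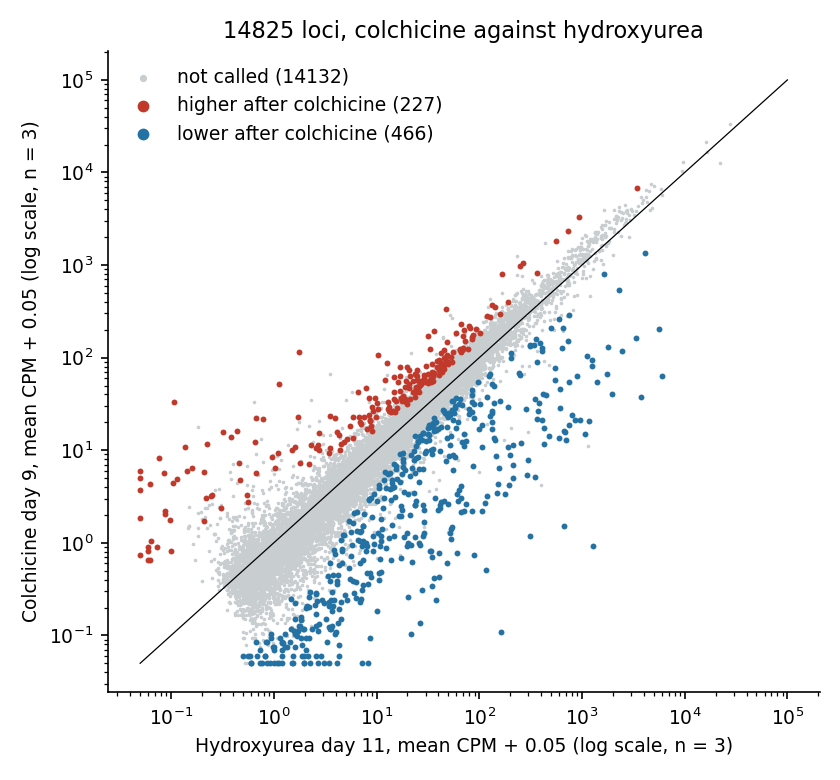
Mean CPM plus 0.05 of each of 14825 loci after colchicine (vertical axis, 3 libraries) against hydroxyurea day 11 (horizontal axis, 3 libraries), both on log scales, with the line of equal values. Blue points are the 466 loci called lower after colchicine, which reach far below the line at every level, and red points are the 227 called higher.

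The lower loci were a sizeable part of the mRNA in all groups but colchicine. The 466 loci held 1.04%, 0.804% and 0.876% of the counts of colchicine libraries A, B and C, against 8.83%, 6.84% and 8.21% in the hydroxyurea day 11 libraries from which, with colchicine, they were chosen. In libraries that the choice did not use, they held 6.53% to 9.09% of the counts after hydroxyurea on days 4, 5 and 7, 7.39% to 9.87% after heat shock and 3.55% to 6.71% in the 13 control libraries. The 3 colchicine libraries were thus below every other library of the series. The lowest control share, 3.55%, was in day 11 replicate C, where the abundant locus loc01654 alone held 17.3% of the counts. The 227 higher loci held 2.91%, 2.95% and 2.75% of the colchicine libraries and 1.24%, 1.31% and 1.13% of the hydroxyurea day 11 libraries. Their share was 1.22% to 1.33% after heat shock and 1.10% to 1.34% in the day 11 controls. The low colchicine share was alike in library A and in the shallower libraries B and C. All 3 took part in the choice of these loci, which favours such likeness, here and in the differences that follow. Set against the mean of the day 11 controls, the lower loci had a median log2 difference of −3.12, −3.19 and −3.09 in colchicine libraries A, B and C. In the hydroxyurea libraries it was 0.42, 0.11 and 0.35.

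**Figure D2:**
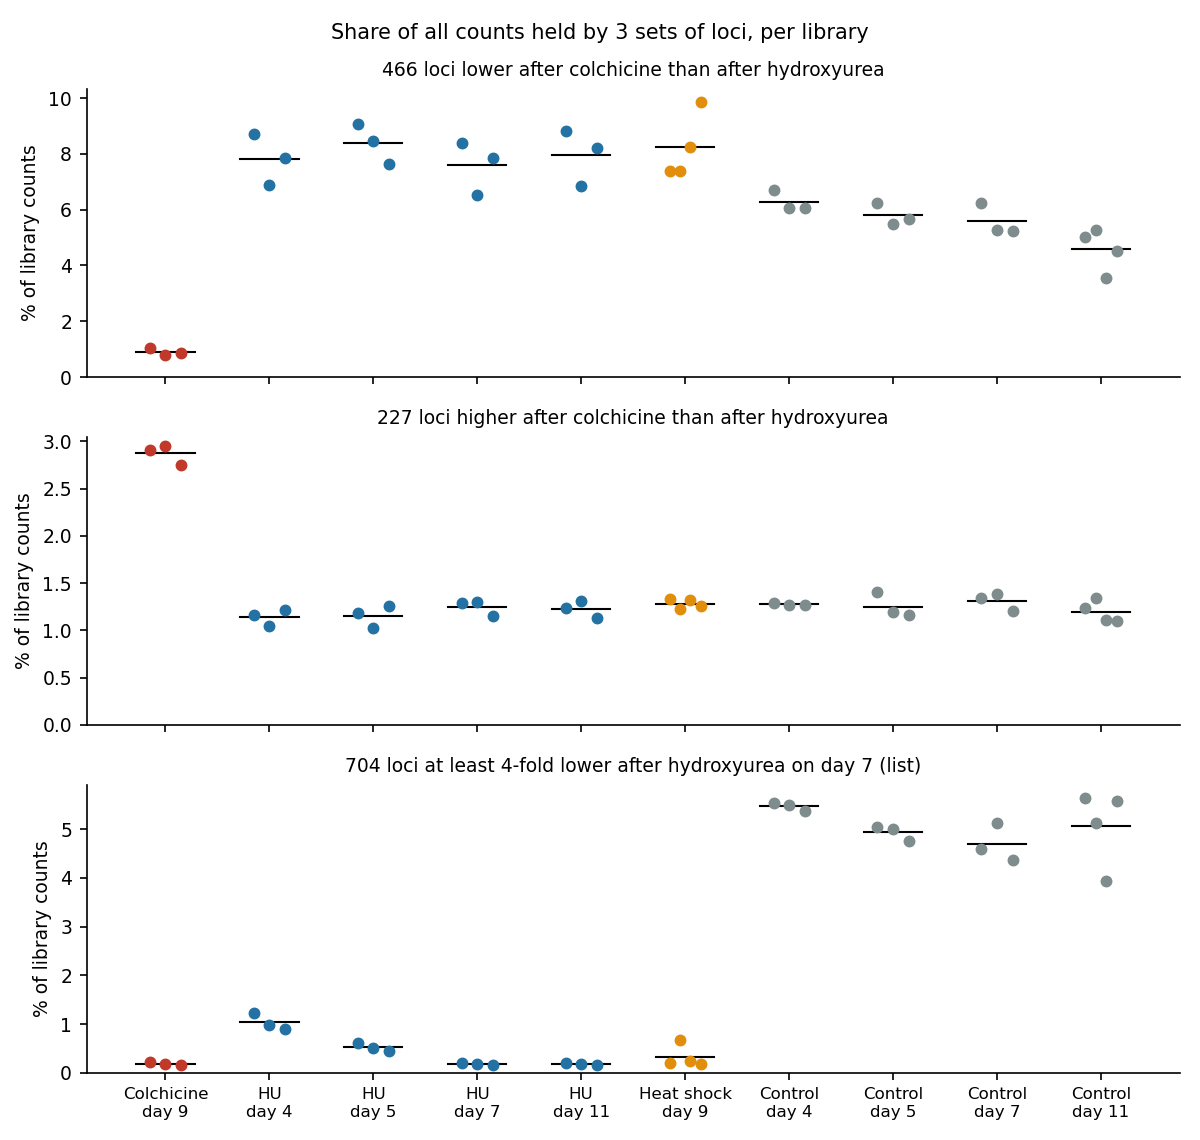
Percent of all counts of a library (vertical axes, each from 0) held by 3 sets of loci, with 1 point per library and a line at the group mean. From top to bottom are the 466 loci lower after colchicine, at 0.804% to 1.04% in its libraries, the 227 loci higher, at 2.75% to 2.95%, and the 704 loci at least 4-fold lower after hydroxyurea on day 7, which are near 0.2% in colchicine and hydroxyurea day 11 libraries alike.

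Among called loci with a mean of at least 5 CPM, the largest drop was at loc01222, which had 0.173, 0 and 0 CPM after colchicine, against 184, 136 and 173 CPM after hydroxyurea. The log2 fold change was −10.66 ± 0.54 (SE, adjusted p = 8.04e-05), and the colchicine libraries held 6 counts in all. In the day 11 controls the locus stood at 30.6 to 41.4 CPM, and at 138 to 228 CPM after heat shock. Relative to the day 11 controls it was thus down after colchicine and up after hydroxyurea and heat shock. The day 4 controls had stood higher than those of day 11, at 87.2 to 142 CPM. Loc12281 followed with 2.64, 0 and 0 CPM after colchicine, against 1561, 1009 and 1263 CPM after hydroxyurea (log2 fold change −10.16 ± 1.35, adjusted p = 0.0104). All of its 92 colchicine counts were in library A. Its controls were at 452 to 572 CPM.

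Loc06087, loc02326 and loc17107 had counts in every colchicine library and were low in all 3. Loc06087 had 1.61, 2.12 and 0.696 CPM after colchicine and 751, 573 and 689 CPM after hydroxyurea, a log2 fold change of −8.79 ± 0.43 (adjusted p = 8.04e-05). Loc02326 had 0.920, 1.39 and 1.09 CPM after colchicine and 369, 248 and 316 CPM after hydroxyurea (−8.13 ± 0.32, adjusted p = 7.81e-05). Loc17107 had 0.374, 0.219 and 0.795 CPM after colchicine and 130, 95.4 and 120 CPM after hydroxyurea (−8.07 ± 0.38, adjusted p = 8.04e-05). The groups are far apart at each of these loci, and no hydroxyurea library is near a colchicine one.

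Loc03600 and loc03601, which are neighbours in the numbering, had 3 and 6 counts over the 3 colchicine libraries. Loc03600 had 29.8, 15.3 and 19.2 CPM after hydroxyurea, a ratio of hydroxyurea to colchicine of 432 with a 95% counting interval of 148 to 2096, which covers counting error only. Loc03601 had 0.115, 0.146 and 0 CPM after colchicine and 35.7, 22.0 and 22.4 CPM after hydroxyurea (log2 fold change −7.99 ± 0.49, adjusted p = 0.00016). Loc13022 completed this set with 0.431, 0.438 and 0 CPM after colchicine and 38.5, 26.4 and 38.4 CPM after hydroxyurea (−6.66 ± 0.52, adjusted p = 0.000471). Among all 466 lower loci, 85 had at most 3 counts in each colchicine library and 21 had none in any. Loc00130, a member of the list of loci higher on hydroxyurea day 7, was one of those 21. It was at 0 in every colchicine library and at 1.67, 1.56 and 3.39 CPM after hydroxyurea, at least 7.40-fold lower when the floor of 3 counts in the shallowest colchicine library, 0.298 CPM, is taken in place of 0.

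The 5 most abundant lower loci were high in every hydroxyurea library. Loc13050 had 78.6, 65.3 and 48.1 CPM after colchicine, against 6817, 4720 and 6545 CPM after hydroxyurea (log2 fold change −6.56 ± 0.35, adjusted p = 8.88e-05). Loc07083 had 37.5, 37.3 and 39.1 CPM after colchicine, against 3880, 2985 and 4382 CPM after hydroxyurea (−6.63 ± 0.29, adjusted p = 7.81e-05). The colchicine values of loc07083 are nearly equal in the 3 libraries although these differ in depth and in the number of loci seen. Loc02574 had 119, 176 and 321 CPM after colchicine, against 6154, 4169 and 6592 CPM after hydroxyurea (−4.77 ± 0.47, adjusted p = 0.00142). Loc15649 had 112, 159 and 219 CPM after colchicine, against 3578, 2628 and 3964 CPM after hydroxyurea (−4.37 ± 0.36, adjusted p = 0.000545). In these 2 loci colchicine replicate C was the highest of its group, and it remained below every hydroxyurea library.

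Loc12638 was different. It had 1083, 1245 and 1729 CPM after colchicine and 3999, 3653 and 4610 CPM after hydroxyurea (log2 fold change −1.59 ± 0.27, adjusted p = 0.0186). The day 11 controls were at 1649 to 1824 CPM. Colchicine library C lay within that range, and libraries A and B lay below it. The fit against control gave a log2 fold change of −0.32 ± 0.22 for colchicine, which was not called (adjusted p = 0.311). For hydroxyurea the same fit gave 1.19 ± 0.09 (adjusted p = 3.96e-06). The 5 most abundant lower loci together held 15.5%, 18.8% and 20.7% of the counts of the 466 in the colchicine libraries and 28.3%, 27.5% and 29.6% in the hydroxyurea libraries, so most of the counts of the set lay in other loci.

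**Figure D3:**
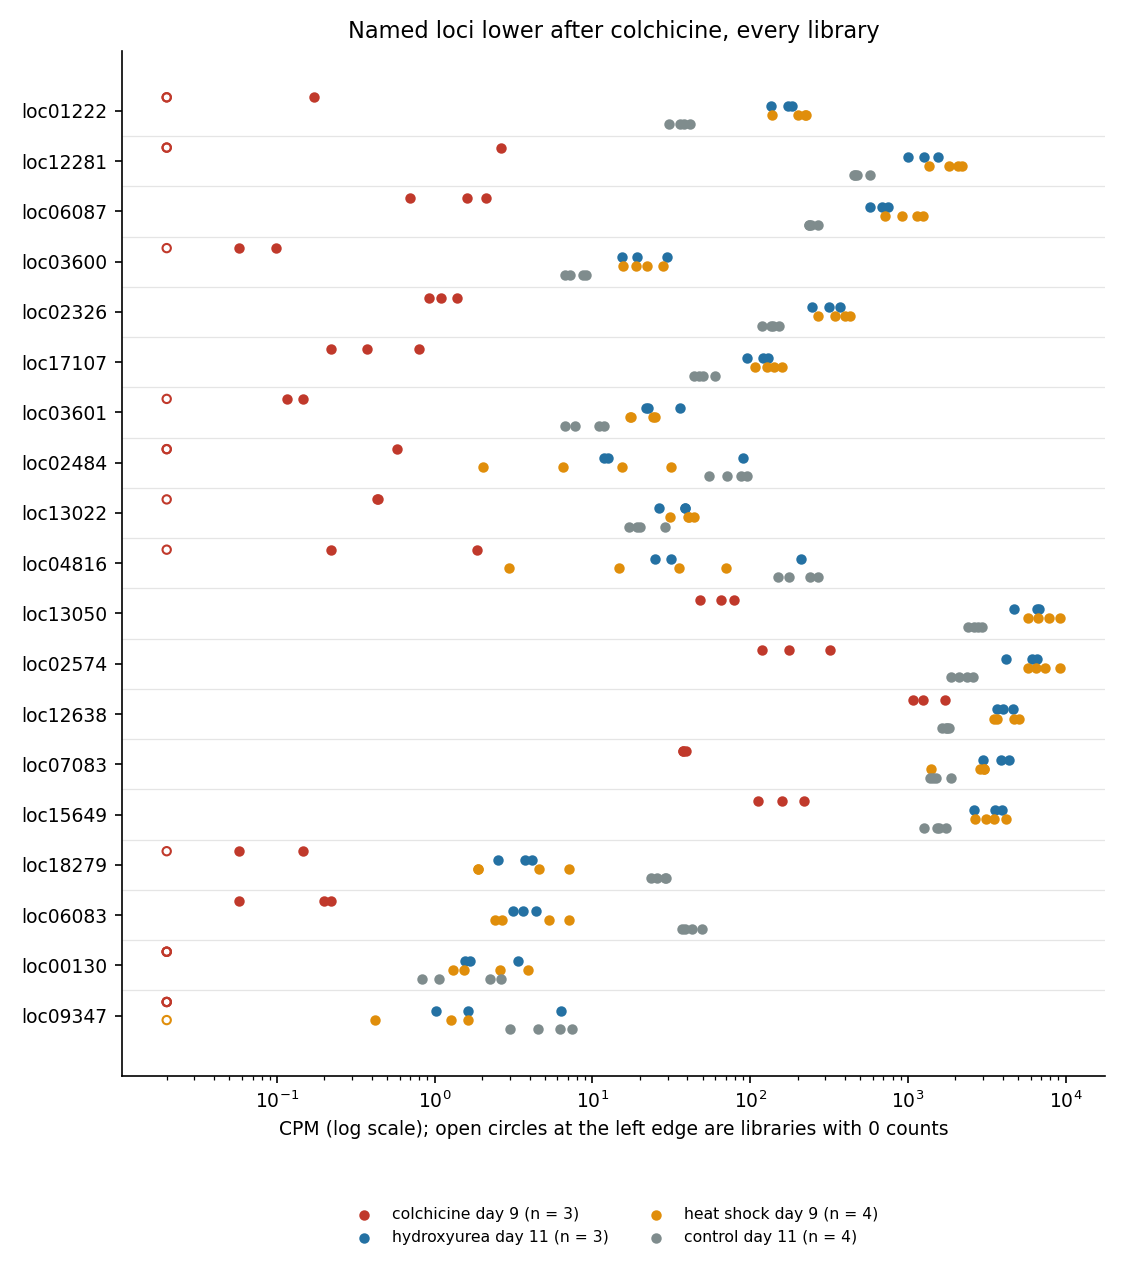
CPM (log axis) in every library of colchicine, hydroxyurea day 11, heat shock and control day 11, for the named loci that were lower after colchicine, with open circles for libraries at 0. The colchicine points lie to the left of all hydroxyurea points in every row, and in most rows the heat shock points lie with the hydroxyurea points at or right of the controls.

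At 3 named loci the hydroxyurea libraries themselves were far apart. Loc02484 had 0.575, 0 and 0 CPM after colchicine and 89.9, 12.5 and 11.8 CPM after hydroxyurea (log2 fold change −7.02 ± 1.34, adjusted p = 0.0384). Loc04816 had 1.87, 0.219 and 0 CPM after colchicine and 211, 31.6 and 25.0 CPM after hydroxyurea (−6.63 ± 1.34, adjusted p = 0.0444). Loc09347 was at 0 in every colchicine library and at 6.34, 1.64 and 1.02 CPM after hydroxyurea, at least 10.1-fold lower against the floor (adjusted p = 0.0431). In each of them hydroxyurea replicate A was the highest and lay within the range of the day 11 controls, which was 54.7 to 95.4 CPM for loc02484, 149 to 268 CPM for loc04816 and 3.00 to 7.38 CPM for loc09347. Heat shock was low and spread at the same loci, at 2.02 to 31.7 CPM for loc02484 and 2.94 to 70.0 CPM for loc04816. Replicate A was at least 3-fold above both other hydroxyurea libraries in 7 of the 466 lower loci, and replicates B and C in 0. Over all 14825 loci tested, this was so in 79, 33 and 22 loci for replicates A, B and C. The colchicine libraries differed more. Their replicates A, B and C were at least 3-fold above both others in 54, 40 and 29 of the 466 lower loci. They were at least 3-fold below both in 34, 63 and 100. Over all loci tested these counts were 643, 139 and 172 above, and 148, 542 and 2964 below.

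The 2 drugs were next set beside untreated animals. Colchicine shares its libraries, and hydroxyurea its own, with the comparison that chose the loci, so these counts are a description. Against control day 11, 429 of 462 lower loci tested there were also lower after colchicine (92.9%, where 15.3% of all loci were called lower and 14.2% higher), and 2 were higher. Against the same controls, 169 of the 466 were higher after hydroxyurea day 11 (36.3%, with 15.8% of all loci called higher) and 82 were lower (17.6%, with 18.4% of all). By class, 210 of the 466 were lower after colchicine and not called after hydroxyurea, 137 were down after colchicine but up after hydroxyurea, and 82 were lower after both. A further 30 were not called or not tested after colchicine and higher after hydroxyurea, as loc12638 was. The choice of the loci favours classes in which the drugs differ, and the shares of these classes over all loci are not given here.

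The groups that the choice did not use gave the behaviour of the lower loci when animals were treated otherwise. After hydroxyurea on day 7 against control day 7, 129 of 466 were higher (27.7%, where 16.2% of all loci tested were) and 90 were lower (19.3%, where 22.5% of all were). After heat shock against control day 11, 180 of 464 were higher (38.8%, against 15.4% of all loci) and 98 were lower (21.1%, against 16.7%). Their median log2 difference from the matched controls was 0.20, 0.23 and 0.17 after hydroxyurea on days 4, 5 and 7, and 0.24 after heat shock. It was −3.19 after colchicine. In control animals themselves, between day 4 and day 11 of starvation, 17 of 463 were higher on day 11 and 84 were lower (3.67% and 18.1%), where 1.7% and 2.29% of all loci were called. The median log2 difference between control days 11 and 4 was −0.25 for the set and −0.03 for all loci tested.

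**Figure D4:**
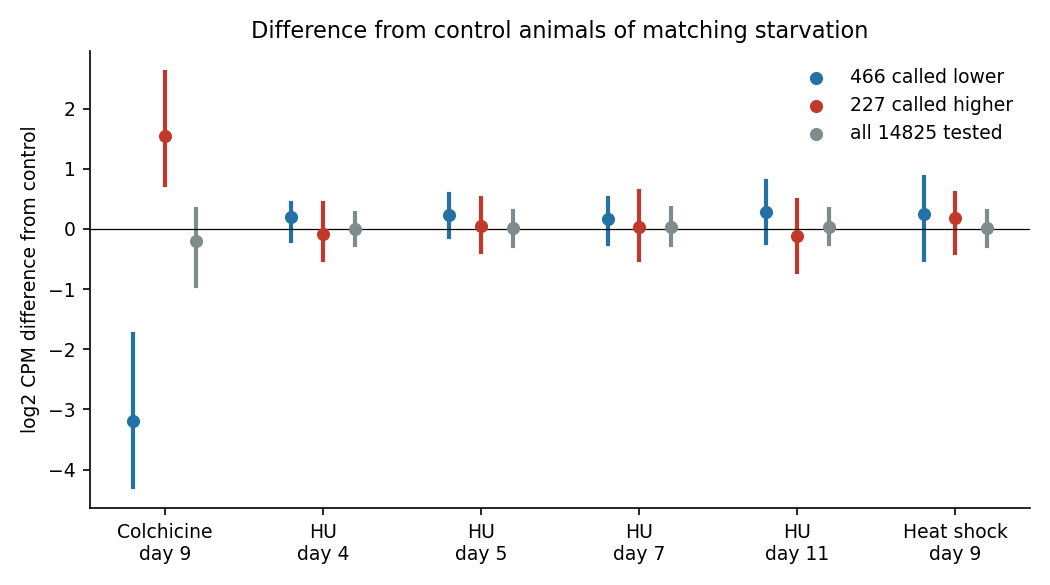
Median (points) and middle 50% (bars) of the log2 CPM difference between the mean of a treated group and the mean of controls with the same days of starvation, for the 466 lower loci, the 227 higher loci and all 14825 tested. The lower loci sit at −3.19 after colchicine and between 0.17 and 0.28 after hydroxyurea and heat shock, and the higher loci are off the zero line by 1.54 after colchicine.

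The higher loci with the largest fold changes were at low levels after hydroxyurea day 11. Loc03997 had 10.8, 31.6 and 58.1 CPM after colchicine, against 0.0911, 0.0380 and 0.0408 CPM after hydroxyurea, where 5 counts were seen in all (log2 fold change 9.02 ± 0.87, adjusted p = 0.00138). Of the day 11 controls only replicate B was above 0, at 0.0320 CPM, which is under its floor of 3 counts (0.0959 CPM). Among heat shock libraries replicate D alone had more than 0.0415 CPM, with 5.04 CPM. In the hydroxyurea series the locus reached 4.49 CPM in day 4 replicate C and 3.42 CPM in day 5 replicate C. Loc22467 had 5.98, 8.04 and 21.3 CPM after colchicine and 0.121, 0.114 and 0.286 CPM after hydroxyurea (6.07 ± 0.71, adjusted p = 0.00336), with 4.20 CPM in hydroxyurea day 5 replicate C. Loc15811 had 8.16, 18.2 and 41.0 CPM after colchicine and 0.668, 0.647 and 0.531 CPM after hydroxyurea (5.17 ± 0.64, adjusted p = 0.00474). At all 3 loci the levels in the colchicine libraries were spread over a wide range, with replicate C the highest and A the lowest.

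Loc07078 had the largest SD in CPM among these, with 47.5, 51.7 and 249.8 CPM after colchicine and 1.21, 2.09 and 1.84 CPM after hydroxyurea (log2 fold change 6.09 ± 0.84, adjusted p = 0.0116). Loc01897 had the adjusted p nearest the threshold among the named loci, with 10.3, 36.3 and 18.0 CPM after colchicine and 1.00, 1.18 and 0 CPM after hydroxyurea (4.86 ± 1.02, adjusted p = 0.0495). Its call was kept in 13 of 23 alternatives with other settings or libraries, as was that of loc02484, while loc04816 was called in 12 of 23 and loc09347 in 11 of 22.

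At 5 further loci the day 11 controls fell into a higher and a lower pair. Loc13956 had 11.2, 13.2 and 17.7 CPM after colchicine and 0.304, 0.380 and 0.327 CPM after hydroxyurea (log2 fold change 5.36 ± 0.34, adjusted p = 0.000198). Its controls A and B were at 3.98 and 1.63 CPM and its controls C and D at 0.0403 and 0.0732 CPM. Control A and B were also the higher pair at loc10254, loc22437, loc22446 and loc15648. Loc22437 had 7.01, 12.0 and 27.7 CPM after colchicine and 0.121, 0.533 and 0.163 CPM after hydroxyurea, where controls A and B were at 3.30 and 2.75 CPM and C and D at 0.0403 and 0.0366 CPM. Against these controls the colchicine difference of loc22437 did not pass the test (3.33 ± 1.17, adjusted p = 0.0657), nor did that of loc13956 (3.27 ± 1.09, adjusted p = 0.0544), although every colchicine library was above every control. Colchicine levels were 5.46 to 17.9 CPM for loc10254, 15.4 to 93.2 CPM for loc22446 and 6.15 to 24.4 CPM for loc15648, with hydroxyurea at 0 to 0.228, 0.698 to 1.71 and 0.327 to 0.495 CPM. Uneven controls were not confined to day 11. On control days 4 and 5, replicate A was the highest of its group at all 5 loci, with 2.85 and 3.165 CPM for loc22437. On control day 7 loc22437 had 0.414 to 0.982 CPM.

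Among abundant loci the increases were smaller. Loc07283 had 7318, 6936 and 6291 CPM after colchicine, against 3468, 3292 and 3536 CPM after hydroxyurea (log2 fold change 1.00 ± 0.21, adjusted p = 0.0436). It was also higher after hydroxyurea than in the day 11 controls, which stood at 2043 to 2790 CPM (0.52 ± 0.10, adjusted p = 0.0027). Loc15276 had 2138, 3580 and 4140 CPM after colchicine and 954, 972 and 861 CPM after hydroxyurea (1.83 ± 0.30, adjusted p = 0.0173). Loc01740 had 586, 1128 and 1459 CPM after colchicine and 265, 297 and 241 CPM after hydroxyurea (1.99 ± 0.35, adjusted p = 0.0228). Loc18161 and loc13198 had log2 fold changes of 1.67 ± 0.27 (adjusted p = 0.0172) and 1.73 ± 0.27 (adjusted p = 0.013). In loc15276, loc18161, loc13198 and loc01740 the colchicine libraries ran in the same order, with A lowest and C highest, and each of the 4 was also higher after hydroxyurea than in control, by 0.51 to 0.83 on the log2 scale.

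**Figure D5:**
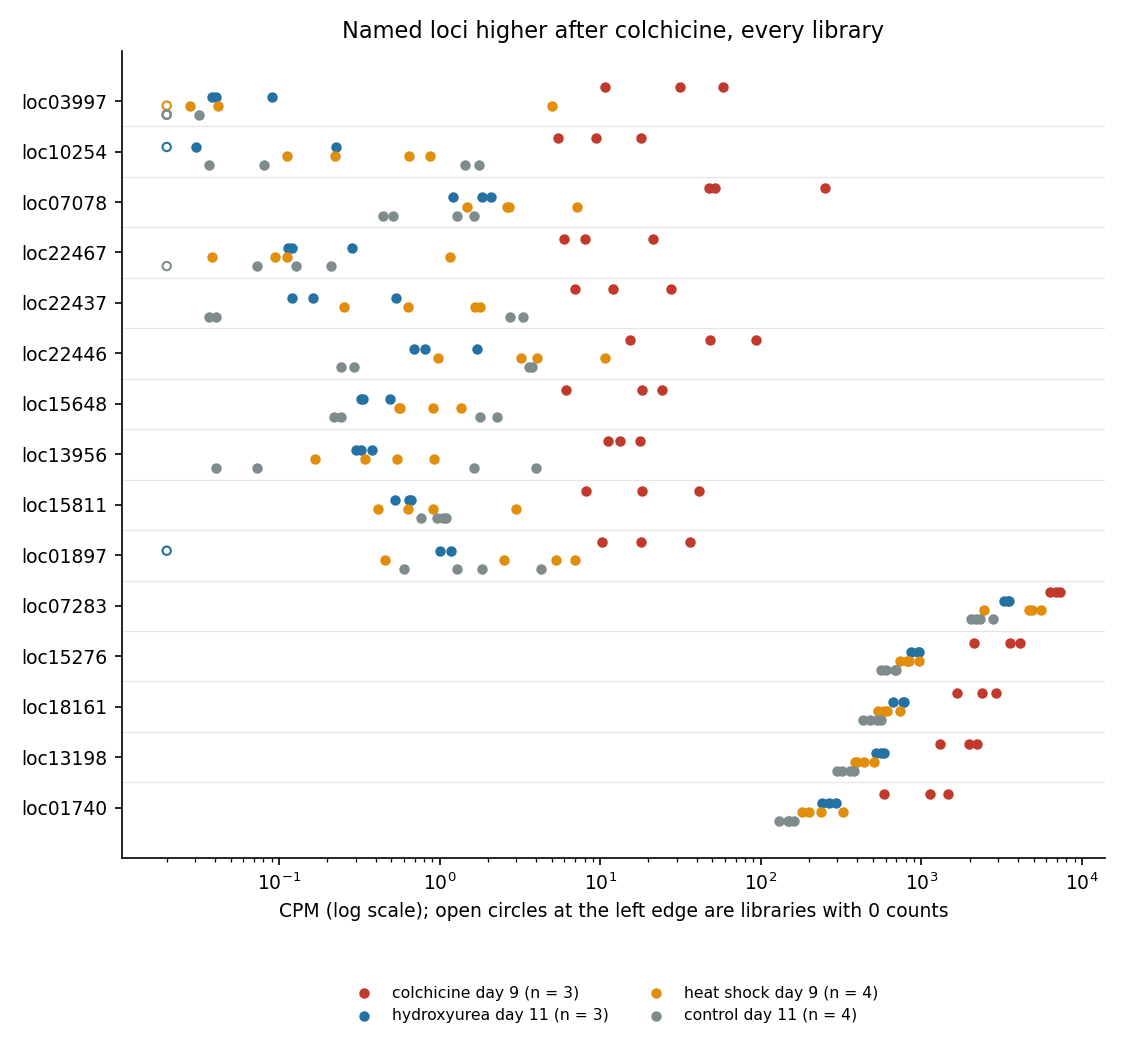
CPM (log axis) in every library of colchicine, hydroxyurea day 11, heat shock and control day 11, for the named loci that were higher after colchicine, with open circles for libraries at 0. The 10 rows at the top, chosen by fold change, lie at most around 10 CPM in other groups, and the 5 rows at the bottom, chosen by abundance, are closer to the other groups.

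Against control day 11, 172 of the 227 higher loci were higher after colchicine and 5 were lower (75.8% and 2.20%, where 14.2% and 15.3% of all loci were), again a description from shared libraries. After hydroxyurea day 11, 58 of 199 tested were higher and 60 were lower than in control (29.1% and 30.2%, where 15.8% and 18.4% of all loci were). In groups outside the choice, the higher loci were called in both directions. On hydroxyurea day 7, 65 of 199 were higher and 60 lower (32.7% and 30.2%, against 16.2% and 22.5% of all loci tested), and after heat shock 60 of 200 were higher and 43 lower (30% and 21.5%, against 15.4% and 16.7%). By class, 93 of the 227 were higher after colchicine and either not called or not tested after hydroxyurea, 58 were higher after both, and 21 were higher after colchicine and lower after hydroxyurea. For 34 loci, only the decrease after hydroxyurea passed the test against control. Here too the choice favours classes in which the drugs differ, and the shares of the classes over all loci are not given.

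Loci that were already low on hydroxyurea day 7 had a low share of the counts after both drugs. A list of 704 loci that were called and at least 4-fold lower on hydroxyurea day 7 than in control day 7 was taken from libraries outside the comparison. These loci held 0.222%, 0.183% and 0.157% of the counts of the colchicine libraries and 0.201%, 0.186% and 0.160% of the hydroxyurea day 11 libraries, against 3.93% to 5.64% in the day 11 controls. In the hydroxyurea series their share was 0.902% to 1.23% on day 4, 0.436% to 0.612% on day 5 and 0.168% to 0.202% on day 7. Of the 704 loci, 357 passed the filter on low counts. Among them 5 were lower and 3 higher after colchicine (1.40% and 0.840%, against 3.14% and 1.53% of all loci), with a median log2 fold change of −0.06, which was −0.13 to 0.10 over the alternatives. The 347 others had median levels of 0.10 CPM after colchicine, 0.0618 CPM after hydroxyurea and 6.65 CPM in control day 11. Heat shock replicate B, at 0.672%, kept more of this list than the other heat shock libraries, at 0.187% to 0.239%.

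The 2 members of that list with the largest difference between the drugs had gone further down after colchicine. Loc18279 had 0.0575, 0.146 and 0 CPM after colchicine and 3.76, 2.51 and 4.12 CPM after hydroxyurea, with 23.6 to 29.1 CPM in the day 11 controls (log2 fold change between the drugs −5.54 ± 0.79, adjusted p = 0.00921). Loc06083 had 0.0575, 0.219 and 0.199 CPM after colchicine and 3.61, 3.12 and 4.41 CPM after hydroxyurea, with 36.7 to 49.3 CPM in the controls (−4.69 ± 0.68, adjusted p = 0.00987). For both loci hydroxyurea was between colchicine and control, with no overlap of the 3 groups.

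Loci raised by heat shock were well represented among the lower calls. Of 575 tested loci that were at least 2-fold higher after heat shock, 92 were lower after colchicine than after hydroxyurea and 23 were higher (16% and 4%, beside 3.14% and 1.53% of all loci). Loc01222 and loc12281 had the largest differences of this list. Of 619 tested loci that were at least 2-fold higher on hydroxyurea day 7, 25 were lower and 26 higher (4.04% and 4.20%). The median log2 fold change was 0.15 for the heat shock list, with −0.04 when colchicine replicate A was the only colchicine library and −0.02 in limma voom with quality weights, and 0.24 for the hydroxyurea list. Of 397 tested loci at least 4-fold lower after heat shock, 18 were lower and 4 higher (4.53% and 1.01%), with loc02484 and loc09347 among the lower ones. Of 606 tested loci that changed with starvation between control days 4 and 11, 101 were lower and 25 higher after colchicine (16.7% and 4.13%), with a median log2 fold change of −0.10.

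Of the 200 most abundant loci in control day 11, 11 were lower and 1 was higher after colchicine (5.5% and 0.5%, beside 3.14% and 1.53% of all loci), with loc13050 and loc07083 at the head. Over the 200 the median on the log2 scale was 0.32, and −0.17 with colchicine replicate A alone. When the loci tested were ranked by control abundance and divided into 5 bins of 2965, the lower calls numbered 139, 95, 87, 87 and 58 and the higher calls 47, 61, 37, 31 and 51, starting from the most abundant bin. The median log2 fold change moved with abundance, from 0.15 in the most abundant bin to −0.37 in the least abundant one. In the least abundant bin, 50, 241 and 1190 of the 2965 loci had no count in colchicine libraries A, B and C, and 31, 40 and 52 had none in the hydroxyurea libraries. The median difference from the hydroxyurea mean there was 0.15, −0.24 and −2.11 in colchicine libraries A, B and C. Levels of rare loci in colchicine replicate C were thus low as a whole. In colchicine library A alone, the median log2 difference from the day 11 controls was −3.12 for the 466 lower loci. It was 1.36 for the 227 higher loci and 0.04 for all loci tested. Library A took part in the choice of these loci, so the values are a description.

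Tested one sequence at a time, 416 of 28782 sequences were lower and 139 were higher after colchicine (1.45% and 0.483%). Of the 960 tested sequences of the lower loci, 910 had a negative fold change, and of the 503 of the higher loci, 466 had a positive one, which the choice of these loci favours. A locus held sequences called in opposite directions in 2 cases. In loc24483, with 26 sequences, the sequence seq74242_loc24483_vl0032409 had 30.2, 36.1 and 37.2 CPM after colchicine and 540, 454.5 and 652 CPM after hydroxyurea (log2 fold change −4.01 ± 0.23, adjusted p = 0.000652). The sequence seq74241_loc24483_tr0592526 had 29.3, 27.6 and 37.3 CPM after colchicine and 1.94, 3.99 and 6.00 CPM after hydroxyurea (2.97 ± 0.42, adjusted p = 0.0215). After colchicine they were equally abundant, whereas after hydroxyurea the first of them was far above the other. The day 11 controls had 264 to 341 CPM of that sequence and 1.75 to 6.96 CPM of the other. Loc24483 as a whole was lower after colchicine (−2.35 ± 0.20, adjusted p = 0.000755). In loc17852, the second case, 1 sequence had 1.55 to 3.58 CPM after colchicine and 0 in every hydroxyurea library, and another had 0 in every colchicine library and 2.28 to 3.13 CPM after hydroxyurea. Reads shared by similar sequences can be split among them by the counting, so values of single sequences are less certain than those of a locus, and the number of such loci was 25 without colchicine replicate A and 0 without colchicine replicate B or without hydroxyurea replicate B.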

How the data were processed

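Whole-number counts per sequence were used as the authors deposited them, for 79774 sequences at 25879 loci. The submitters' processing notes name cutadapt 1.11, Salmon 0.7.2 and DESeq2, without their roles. The reference sequences, the strand setting and how multiply matching reads were counted are not given in the sources used here. The largest counts keep only 6 significant digits. A second deposited table holds a normalized signal, which was found to equal the count times 1 constant per library (0.782 to 2.80 in the 6 libraries), and it served only an alternative.

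Counts were summed per locus and tested with edgeR 4.0.16 (R 4.3.3), using the robust quasi-likelihood F-test, TMM scaling and filterByExpr with a minimum of 10 counts, which kept 14825 loci with 99.9% of the counts. The fit held only the 6 libraries. Calls have a Benjamini-Hochberg adjusted p under 0.05. Lists came from the same test on other libraries. Printed CPM use the TMM factors of all 32 libraries (0.770 to 1.19), and log2 shifts a prior count of 2. A count of 0 allows 3 counts by counting error alone, up to 0.298 CPM in the shallowest library. Bounds from this floor do not cover the fewer loci seen in colchicine replicate C at equal depth. Library totals were 13.1 to 32.2 M (mega) counts. Between groups, totals, detected loci and the share of the 100 largest loci gave exact two-sided permutation p of 0.3, 0.3 and 0.2, where 3 against 3 cannot go below 0.1.

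Named are, among called loci with at least 5 CPM on average and no overlap between groups, the 10 with the largest fold change and the 5 most abundant in each direction. Also named, with no minimum level, are the 2 called members of each list with the largest change, and loci whose sequences moved apart. The comparison, lists and rules were chosen with earlier results of these data known. Counts were simulated for this comparison over 14391 loci. The test recovered 6 of 67 loci changed 2-fold, 48 of 67 changed 4-fold and 55 of 66 changed 16-fold, with 10 false calls. The simulation gave both groups the same spread at a locus, whereas the real colchicine libraries varied more than the hydroxyurea ones. It therefore does not measure recovery or false calls under that unequal spread. Alternatives included other scalings, filters, tests (DESeq2 1.42.0, limma 3.58.1), fewer or more libraries and thinned counts. None of the identifiers matched the 28925 genes of the assembly HydraT2T_AEP, so gene names, markers and sequences are not reported.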

Additional observations from a re-analysis of the deposited data

Results flagged for a closer look

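In a group of 4 libraries, a library was singled out when its gap to the nearest other exceeded Dixon's critical value. Of 74 measures compared, 4 passed it, where chance gives about 3.7. Loc03997 had 5.04 CPM in heat shock replicate D and at most 0.0415 CPM in the other 3 heat shock libraries. At the same locus, control day 11 replicate B had 0.0320 CPM and the other 3 controls had 0. That value is under the floor of 3 counts in this library, 0.0959 CPM, and is within counting error of 0. Loc22467 had 1.16 CPM in heat shock replicate B and 0.0382 to 0.112 CPM in the others. Loc07083 had 1404 CPM in heat shock replicate A and 2867 to 3053 CPM in the others.

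The 46 loci at least 8-fold higher after colchicine had a raised level in 1 library outside the comparison. Their summed level was 178.9 CPM in hydroxyurea day 5 replicate C, with 28 of the 46 above all 13 control libraries, while replicates A and B of that day had 33.6 and 32.4 CPM. The sum was 334, 474 and 928 CPM in the colchicine libraries and 48.0 to 105 CPM in the controls.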

How the results depend on the processing

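Other scalings, filters, thinning to equal depth and a required 2-fold change were tried. So were hydroxyurea day 7 in place of day 11 and leaving out the abundant locus loc01654 (added after seeing the data). Under these settings the call count of 693 loci was 585 to 836. It was 1796 with DESeq2 (912 higher, 884 lower), 1735 with limma voom and library quality weights (810 and 925), 2403 with the 4 controls in the fit (1174 and 1229) and 4866 with all 32 libraries (2371 and 2495). It was 1679 with colchicine replicate A alone, 164 with replicates B and C alone and 234 at an adjusted p under 0.01. Leaving out 1 library gave 204 to 1922. Whether the letters pair the samples was not settled. Correlations of the deviations from the group means were 0.33, −0.11 and 0.24 for same letters. For differing letters they ran from −0.35 to 0.21. A replicate block gave 596 calls. Loci with oppositely called sequences numbered 2, against 149 with all 32 libraries, 0 with replicates B and C alone and 0 to 25 when 1 library was left out. The cause of these differences was not tested.

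Of the 35 named loci, 640 of 734 alternative values kept direction and call, 94 kept only the direction and 0 reversed. Most of these loci were named for being called without overlap, and most alternatives reuse the same libraries. The naming rule thus made a reversal unlikely. Calls held under every alternative numbered 100 of 466 lower and 7 of 227 higher loci. By counting error alone, a count of 0 in colchicine replicate C allows 0.298 CPM. This floor takes account of depth only. At equal depth that replicate showed 14723 loci, against 17918 to 19695 in the other libraries, and the cause was not tested.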
